A study of Homo sapiens with 9 samples.

Results

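The transcripts described here are those of 43 genes that act in S phase or mitosis, out of 20875 genes with a row in the deposited count table. They were chosen by name, with earlier results of these data known. They fall into 19 S phase genes, which license, start, feed or regulate DNA replication, and 24 mitosis genes, which drive or regulate G2 and mitosis. Each gene is represented by 1 RefSeq transcript, the one with the most counts over all libraries. The libraries hold polyadenylated RNA of SW480, which is a line of human colorectal cancer cells that lacks a functional APC protein, and of 2 derivatives grown with G418. CONTROL (R38.7 in the labels) carried the empty pEF vector, and the APC line (D2.15) carried a pEF vector for APC with a myc tag. APC is a scaffold protein of the beta-catenin destruction complex. All 3 lines grew in RPMI with thioglycerol, hydrocortisone, insulin, foetal calf serum and antibiotics. Each line gave 3 libraries from parallel plates harvested 72 h after plating. The labels name 1 line for each construct, so the construct and the line that carries it cannot be told apart, and p-values reflect the spread of plates alone. APC cells were plated more thinly than both other lines, in a ratio of 2 to 3.35, so plating density and the APC construct cannot be told apart either.

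DNA replication begins when ORC1, CDC6 and CDT1 load the MCM2-7 helicase onto origins, and cyclin E, CDC45 and the GINS complex then help to start it. E2F transcription factors are known to drive most of these genes at the end of G1. Genes of G2 and mitosis are switched on later, through the MuvB complex with MYBL2 (B-MYB) and FOXM1, which acts at a promoter element called the cell cycle genes homology region (CHR). The anaphase-promoting complex, which ends mitosis by marking cyclin B and securin for destruction, shares an abbreviation with the APC gene but is a different thing.

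Promoter windows of 35 of the 43 genes were found in a RefSeq table of build GRCh38.p14, each from 250 bases before to 50 bases after the transcription start. MCM4, MCM5, CCNE2, BIRC5, AURKA, TPX2, UBE2C and FOXM1 were not matched. The 35 windows were searched on both strands for the CHR (TTTGAA or TTCGAA), the CCAAT box (CCAAT) and E2F sites (TTTCCCGC, TTTGGCGC, TTTCGCGC or TTTGCCGC). The 8 stretches that follow are the 200 bases before the start, 5′ to 3′ in the direction of the gene, chosen because their genes differed between the lines in different ways. All 8 hold the motifs marked in them, and windows without a match are not shown. In the first 4, from S phase genes, capitals mark E2F sites.
GINS2 promoter, chr16:85688955-85689154, minus strand: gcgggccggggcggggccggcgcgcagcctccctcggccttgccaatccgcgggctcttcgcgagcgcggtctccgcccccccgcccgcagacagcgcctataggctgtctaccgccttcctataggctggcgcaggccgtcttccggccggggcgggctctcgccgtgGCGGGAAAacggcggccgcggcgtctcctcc
CDT1 promoter, chr16:88803589-88803788, plus strand: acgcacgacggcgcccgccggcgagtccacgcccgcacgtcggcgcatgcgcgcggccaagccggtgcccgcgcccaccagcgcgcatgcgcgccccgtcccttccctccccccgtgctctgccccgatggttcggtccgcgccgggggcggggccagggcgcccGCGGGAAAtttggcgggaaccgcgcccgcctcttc
MCM6 promoter, chr2:135876444-135876643, minus strand: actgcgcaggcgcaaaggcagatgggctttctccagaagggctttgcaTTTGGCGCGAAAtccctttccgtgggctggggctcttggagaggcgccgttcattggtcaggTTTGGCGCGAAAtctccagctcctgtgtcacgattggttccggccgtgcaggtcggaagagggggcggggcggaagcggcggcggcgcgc
E2F1 promoter, chr20:33686386-33686585, minus strand: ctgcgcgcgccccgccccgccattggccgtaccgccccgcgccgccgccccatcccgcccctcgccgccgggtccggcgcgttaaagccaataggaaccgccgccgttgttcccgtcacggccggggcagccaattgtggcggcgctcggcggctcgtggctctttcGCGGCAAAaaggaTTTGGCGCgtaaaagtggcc
GINS2 and CDT1 were higher in the APC line than in both other lines, MCM6 was lower, and E2F1 lay between them. MCM6 carries 2 pairs of overlapping matches, in which TTTGGCGC shares 4 bases with GCGCGAAA, the other strand of TTTCGCGC. In the next 4, from mitosis genes, capitals mark CHR elements and CCAAT boxes.
PLK1 promoter, chr16:23678689-23678888, plus strand: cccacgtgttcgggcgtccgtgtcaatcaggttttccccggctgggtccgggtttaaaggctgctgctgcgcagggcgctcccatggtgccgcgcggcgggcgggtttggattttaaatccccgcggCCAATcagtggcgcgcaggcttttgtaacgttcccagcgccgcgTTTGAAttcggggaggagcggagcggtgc
MKI67 promoter, chr10:128126424-128126623, minus strand: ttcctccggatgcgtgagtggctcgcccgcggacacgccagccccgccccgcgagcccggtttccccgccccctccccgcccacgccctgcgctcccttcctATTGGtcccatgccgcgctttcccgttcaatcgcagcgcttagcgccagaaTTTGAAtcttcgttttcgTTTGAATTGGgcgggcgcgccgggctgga
TOP2A promoter, chr17:40417897-40418096, minus strand: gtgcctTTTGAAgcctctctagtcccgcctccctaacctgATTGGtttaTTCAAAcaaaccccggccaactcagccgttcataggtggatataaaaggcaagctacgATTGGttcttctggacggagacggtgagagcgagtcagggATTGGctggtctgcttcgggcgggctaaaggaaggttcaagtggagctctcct
CCNB2 promoter, chr15:59104946-59105145, plus strand: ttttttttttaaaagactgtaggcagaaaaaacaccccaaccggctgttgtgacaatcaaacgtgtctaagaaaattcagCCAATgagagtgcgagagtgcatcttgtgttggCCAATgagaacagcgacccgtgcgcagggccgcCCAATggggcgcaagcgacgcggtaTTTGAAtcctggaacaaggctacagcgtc
PLK1 and MKI67 were higher in the APC line than in both other lines, TOP2A was lower, and CCNB2 was lower than in CONTROL. In CCNB2 the CHR begins 29 bases before the start and 3 CCAAT boxes begin 54, 87 and 120 bases before it, 33 bases apart. In MKI67 the second CHR and an inverted CCAAT box share 1 base.

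E2F sites were most frequent in S phase windows and CHR elements in mitosis windows. An E2F site was found in 10 of 16 S phase windows (62.5%) and in 3 of 19 mitosis windows (15.8%), against 3.33% of all 27305 promoter windows in the table. A CHR was found in 13 of 19 mitosis windows (68.4%), 2 of 16 S phase windows (12.5%) and 16.6% of all windows. CCAAT boxes were frequent in both, in 11 of 16 (68.8%) and 16 of 19 (84.2%), against 35.7% of all windows. Of the windows of 10118 genes that entered the expression fit below, 5.19% held an E2F site, 10.7% a CHR and 36.2% a CCAAT box. These are counts of letters in the matched windows, 19 of the 24 for mitosis, and they are given with no test. By direction, a CHR was present in 5 of 7 windows of mitosis genes that were higher in the APC line than in both other lines and in 3 of 3 that were lower. An E2F site was present in 3 of 4 windows of S phase genes that were higher and in 4 of 6 that were lower.

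**Figure D1:**
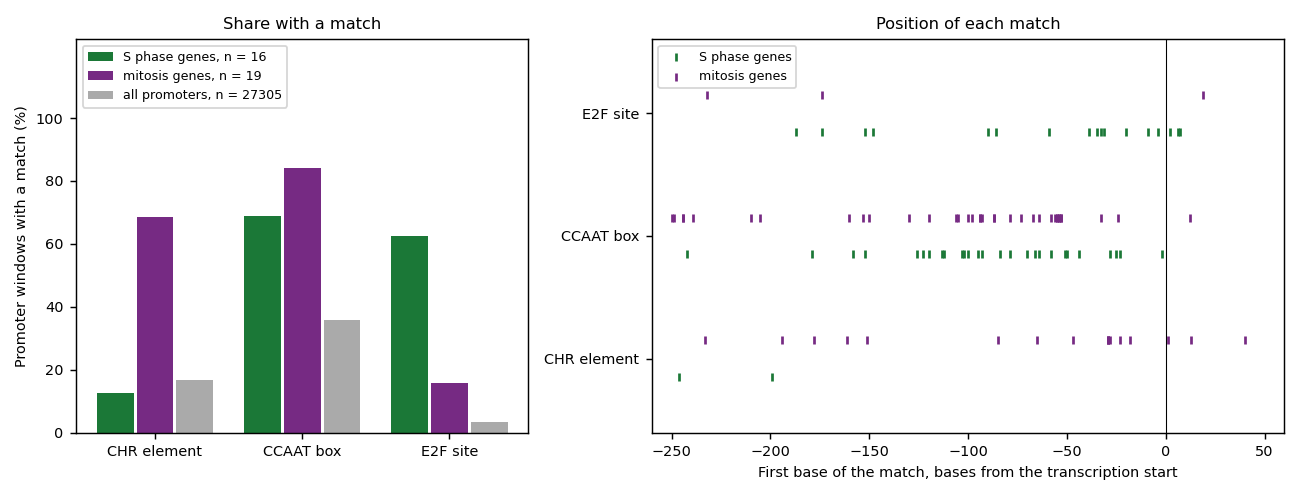
The left panel plots the share of promoter windows with a match (%) for S phase genes, mitosis genes and all promoters in the table, and the right panel plots the first base of each match in bases from the transcription start, 1 tick per match. E2F matches reach 62.5% in S phase windows, and CHR matches reach 68.4% in mitosis windows, where their median position is −29.

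Total counts over genes ranged from 16454635 to 19355493 per library. All 43 genes passed the filter on low counts in the fit of 14253 genes, with 178 (CCNE1) to 20762 (TOP2A) counts per library, a counting error of 7.5% to 0.694%. Levels within a gene are given as CPM (counts scaled to a common library size after TMM normalisation), with a median coefficient of variation of 2.65% between plates. Levels between genes are compared as RPKM, which also divides by transcript length. A gene is called higher or lower where edgeR's quasi-likelihood test gave a Benjamini-Hochberg adjusted p under 0.05 over all genes, and log2 fold changes carry their standard error (SE). Against SW480 and CONTROL, the APC line held 2.94-fold and 3.02-fold more APC transcript. The epithelial keratin genes KRT8 and KRT18 stood at 2585 and 2306 CPM in SW480, whereas the colon markers CDX1 and KRT20 had at most 1 and 5 counts in any library. Of the epithelial markers, EPCAM (49.4, 42.4 and 382 CPM in SW480, CONTROL and the APC line) and VIL1 (0.304, 0.414 and 4.62 CPM) were higher in the APC line than in both other lines, and KRT18 and CDX2 were lower. Their part in the results that follow was not tested. Of 14 listed markers of blood cells, fibroblasts and endothelium, 11 had values and PTPRC, COL3A1 and DCN were not analysed here. COL1A1 stood at 13.1, 11.02 and 12.2 CPM in SW480, CONTROL and the APC line, without passing in either APC comparison. HBA1 stood at 2.67, 1.70 and 0.286 CPM, and the other 9 at 1.43 CPM or less, with at most 4 counts for PECAM1 of endothelium. In RNA from whole plates, fewer cells in a phase and less RNA per cell cannot be told apart.

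Most of the 43 genes differed between the lines, by small amounts and in both directions. Against SW480, 20 rose and 14 fell in the APC line, 79.1% called, where 72.5% of all genes tested were called. Against CONTROL, 21 were higher and 15 lower, 83.7% against 70.2% of all genes. CONTROL itself differed from SW480 in 22 genes, 13 higher and 9 lower, 51.2% against 50% of all genes. Libraries of the lines compared did not overlap for 35, 38 and 27 of the 43 genes, against 73.1%, 73.4% and 56.6% of all genes tested. The shares called exceeded those of all genes in each comparison, most against CONTROL. Of genes at 10 CPM or more, 75.5%, 73.5% and 55.1% were called in the same order. These shares were not tested and are no result about the genes. No gene of the 43 changed over 2-fold in any comparison, while 19.1%, 18.5% and 5.37% of all genes tested did so. Of the 9851 genes at 10 CPM or more, a level that all 43 exceed, 1003, 970 and 121 did so. Their median absolute log2 fold change was 0.24 against SW480, 0.30 against CONTROL and 0.12 between CONTROL and SW480. Over all genes it was 0.35, 0.34 and 0.19, and over the genes at 10 CPM or more it was 0.28, 0.27 and 0.16. The comparisons share libraries, so their values are set side by side and not correlated.

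**Figure D2:**
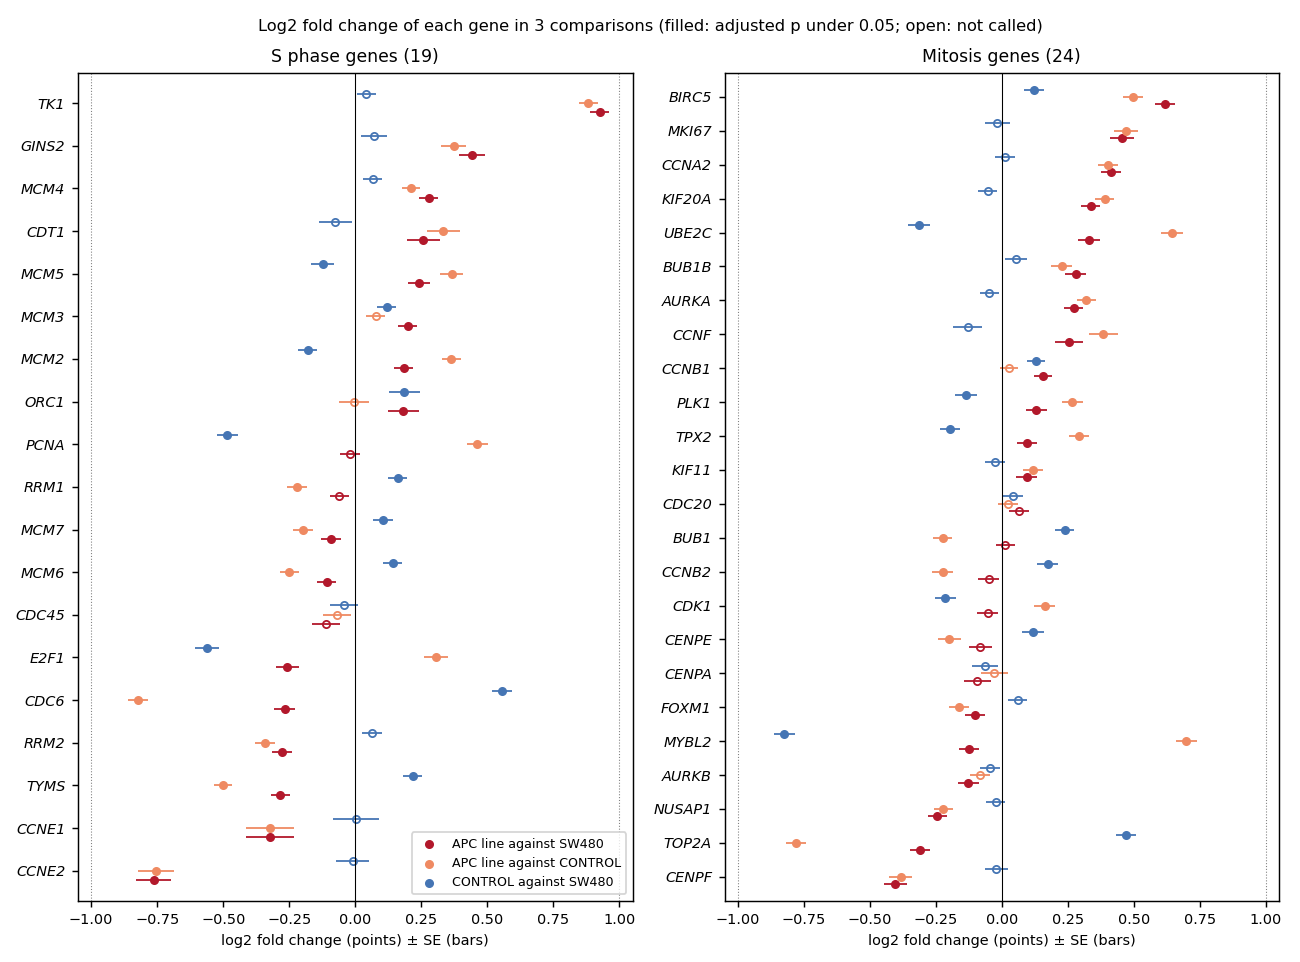
Log2 fold change of each gene (x axis, points) with its SE (bars) in 3 comparisons, S phase genes on the left and mitosis genes on the right, ordered by the APC line against SW480. Filled points passed the test and open points did not. All points lie between −1 and 1, and TK1 (0.93) and CCNE2 (−0.76) are the extremes of the first comparison.

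The S phase genes were split evenly. Against SW480, 8 of 19 rose and 8 fell in the APC line (background 35.6% and 36.9%), with a median log2 fold change of −0.06. Against CONTROL, 8 were higher and 8 lower (34.8% and 35.4% of all genes), with a median of −0.005. In both comparisons together 6 were higher (MCM2, MCM4, MCM5, TK1, CDT1 and GINS2) and 7 lower (MCM6, MCM7, RRM2, TYMS, CDC6, CCNE1 and CCNE2), against 27.8% and 27.9% of all genes, 55.8% in all. Their mean log2 CPM lay between 7.23 and 7.24 for APC plates, between 7.23 and 7.25 for CONTROL plates and between 7.18 and 7.25 for SW480 plates, so the lines overlapped on that scale. Their summed CPM was 4714 to 4822 on APC plates, below the 4865 to 4932 on CONTROL plates and overlapping the 4623 to 4865 on SW480 plates.

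The subunits of the MCM helicase moved apart. MCM2 stood at 243, 231 and 243 CPM on the SW480 plates, 206, 217 and 209 on CONTROL plates and 269, 275 and 269 on APC plates. Every APC library was above all others, and CONTROL was the lowest line. MCM2 exceeded SW480 1.14-fold (log2 fold change 0.18 ± 0.04, edgeR adjusted p = 3.9e-05) and CONTROL 1.29-fold. MCM5 followed the same order of lines, at 124, 113 and 126 CPM on the SW480 plates, 108, 115 and 112 on CONTROL plates and 148, 141 and 141 on APC plates. It was 1.18-fold and 1.29-fold higher than in SW480 and CONTROL, and SW480 and CONTROL libraries overlapped. MCM4 stood at 499, 483 and 507 CPM on the SW480 plates, 519, 521 and 518 on CONTROL plates and 597, 614 and 593 on APC plates, 1.21-fold and 1.16-fold higher in the APC line, which did not overlap the others. MCM6 went the other way, at 266, 273 and 282 CPM on the SW480 plates, 303, 302 and 300.4 on CONTROL plates and 254, 255 and 253 on APC plates. Here the APC line was lowest, 1.08-fold below SW480 (−0.11 ± 0.04, edgeR adjusted p = 0.00781) and 1.19-fold below CONTROL. MCM7, the most abundant subunit at 285 RPKM in SW480 against 42.6 RPKM for MCM5, stood at 901, 881 and 919 CPM on the SW480 plates, 946, 995 and 964 on CONTROL plates and 818, 848 and 867 on APC plates. Its APC libraries were below all others, but the difference from SW480 was small (−0.09 ± 0.04, edgeR adjusted p = 0.0255). That call was lost in 6 of 19 alternatives, among them without SW480 replicate 3 (adjusted p = 0.0704), CONTROL replicate 3 (0.0625), APC replicate 1 (0.149) or APC replicate 2 (0.0754), and adjusted p ranged up to 0.149 over all alternatives. MCM3 was 1.15-fold higher than in SW480 and did not pass against CONTROL (0.08 ± 0.04, edgeR adjusted p = 0.0522), though it did without SW480 replicate 1, 2 or 3 (0.0345, 0.0403 and 0.0272). It also passed there with DESeq2 (adjusted p = 0.0397), its size factors in edgeR (0.0357), summed transcripts (0.0385) and the fit of the 6 compared libraries (0.0224). MCM2 and MCM7 overlap the exons of TPRA1 and AP4M1 on the opposite strand. Whether the counting used strand is not given in the sources used here, so reads from such partners cannot be told apart. The same holds for CCNE2 with INTS8, CCNA2 with EXOSC9, FOXM1 with ITFG2 and, on the same strand, CENPA with SLC35F6. Mean counts of the partner were larger for CCNE2 (INTS8 831, CCNE2 563) and CENPA (SLC35F6 1144, CENPA 885). They were smaller for MCM2 (TPRA1 549, MCM2 4330), MCM7 (AP4M1 492, MCM7 16333), CCNA2 (EXOSC9 967, CCNA2 2899) and FOXM1 (ITFG2 476, FOXM1 4159).

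**Figure D3:**
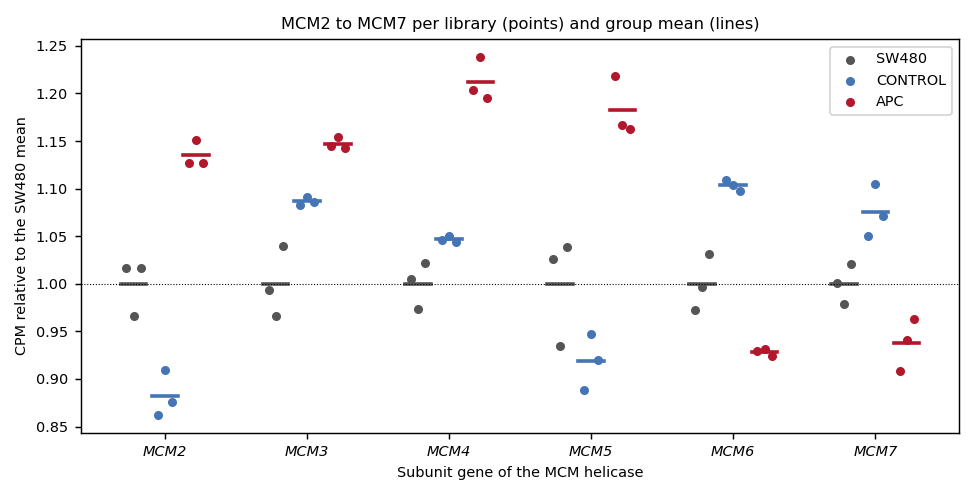
CPM of MCM2 to MCM7 in each library (points) and the group mean (lines), divided by the SW480 mean of that gene. The APC libraries lie above SW480 for MCM2, MCM3, MCM4 and MCM5 and below it for MCM6 and MCM7.

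Among the genes that supply deoxynucleotides, TK1 rose in the APC line while TYMS and RRM2 fell. TK1, the thymidine kinase that recovers thymidine, stood at 136, 133 and 133 CPM on the SW480 plates, 139, 141 and 133 on CONTROL plates and 256, 250.5 and 255 on APC plates. All APC libraries lay far above the other 6, which overlapped each other. TK1 had the largest change of the 43 genes, 1.90-fold higher than in SW480 (0.93 ± 0.04, edgeR adjusted p = 1.6e-21) and exceeding CONTROL 1.84-fold (0.88 ± 0.04). TYMS, which makes thymidylate from deoxyuridylate, stood at 304, 297 and 309 CPM on the SW480 plates, 349, 353 and 356 on CONTROL plates and 244, 249 and 254 on APC plates. No line overlapped another, with CONTROL highest and the APC line lowest. TYMS fell 1.22-fold against SW480 (−0.28 ± 0.04, edgeR adjusted p = 1.3e-08) and 1.42-fold against CONTROL. ENOSF1, whose exons overlap those of TYMS on the opposite strand, had a mean of 4200 counts beside 5462 for TYMS and log2 fold changes of −0.28 and −0.50, so reads from these genes cannot be told apart. RRM2, the S phase subunit of ribonucleotide reductase, stood at 788, 722 and 776 CPM on the SW480 plates, 798, 791 and 799 on CONTROL plates and 614, 638 and 633 on APC plates. The APC line was below both others, 1.21-fold and 1.27-fold. RRM1, the large subunit of that enzyme, was 1.17-fold lower than in CONTROL and did not pass against SW480 (−0.06 ± 0.04, edgeR adjusted p = 0.146). Against SW480 it passed as lower with upper-quartile scaling (edgeR adjusted p = 0.0495), library size alone (0.00939) and limma (0.0486 and 0.0484).

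Loading factors also differed from each other. CDC6, which loads the helicase together with ORC, stood at 144, 147 and 156 CPM on the SW480 plates, 215, 217 and 226 on CONTROL plates and 124, 125 and 123 on APC plates. The lines did not overlap, and CONTROL was the one that stood out. CDC6 was 1.20-fold lower in the APC line than in SW480 and 1.77-fold lower than in CONTROL, which was itself 1.47-fold above SW480 (0.56 ± 0.04, edgeR adjusted p = 5.5e-14). CDT1, its partner in loading, rose instead, to 59.1, 51.6 and 54.2 CPM in the APC line from 50.9, 41.7 and 45.4 in SW480 and 42.5, 45.8 and 42.9 in CONTROL. The APC libraries were above the rest by a narrow margin (1.20-fold and 1.26-fold). GINS2, a subunit of the active helicase, stood at 56.6, 57.8 and 58.4 CPM on the SW480 plates, 62.7, 59.0 and 59.5 on CONTROL plates and 77.3, 74.2 and 83.3 on APC plates. It was 1.36-fold and 1.29-fold higher in the APC line, without overlap, and GSE1, whose exons overlap it on the opposite strand, had log2 fold changes of 1.10 and 0.76. ORC1 rose 1.13-fold against SW480, with overlapping libraries, and this call was lost without SW480 replicate 2 (adjusted p = 0.059, the highest over all alternatives). Against CONTROL its log2 fold change was −0.005 ± 0.06 (95% interval −0.12 to 0.11). CDC45, which joins GINS in the active helicase, did not pass in any comparison, with a difference from SW480 of −0.11 ± 0.05 (95% interval −0.22 to −0.0015), although it passed without SW480 replicate 1 (edgeR adjusted p = 0.0372) or APC replicate 2 (0.0449). It also passed as lower than in SW480 with upper-quartile scaling (edgeR, 0.0305), library size alone (0.0118) and limma (0.0382 and 0.0374).

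PCNA, the sliding clamp of the replication fork, set CONTROL apart from both other lines. Its level was 465, 435 and 452 CPM on the SW480 plates, 315, 324 and 328 on CONTROL plates and 434, 466 and 432 on APC plates. The APC and SW480 libraries overlapped (−0.02 ± 0.04, 95% interval −0.10 to 0.06), and all CONTROL libraries were lower, 1.40-fold below SW480 (edgeR adjusted p = 2.1e-12) and 1.38-fold below the APC line.

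Both cyclin E genes, whose products activate CDK2 at the start of S phase, were lower in the APC line. CCNE2 stood at 36.3, 32.0 and 39.9 CPM on the SW480 plates, 36.0, 35.8 and 35.6 on CONTROL plates and 21.6, 21.3 and 20.8 on APC plates. The SW480 and CONTROL libraries overlapped, and every APC library lay below them, 1.70-fold (−0.76 ± 0.07, edgeR adjusted p = 4.9e-12) and 1.69-fold lower. INTS8, whose exons overlap those of CCNE2 on the opposite strand, had log2 fold changes of 0.003 and −0.26. CCNE1, the least abundant of the S phase genes at 6.58 RPKM in SW480, stood at 15.7, 14.1 and 13.1 CPM on the SW480 plates, 14.4, 15.2 and 13.5 on CONTROL plates and 12.5, 10.3 and 11.6 on APC plates. It was 1.25-fold lower than in SW480 and 1.25-fold lower than in CONTROL, again without overlap. E2F1, the activator of S phase genes whose own promoter is shown above, stood at 128, 118 and 121 CPM on the SW480 plates, 80.9, 86.6 and 81.1 on CONTROL plates and 106, 98.0 and 103 on APC plates. The APC line lay between the others with no overlap, so E2F1 was called lower than in SW480 (−0.26 ± 0.04) and higher than in CONTROL (0.30 ± 0.05). CONTROL was 1.48-fold below SW480 (edgeR adjusted p = 1.8e-12). Over all genes tested, 2.66% were called in opposite directions in this way.

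**Figure D4:**
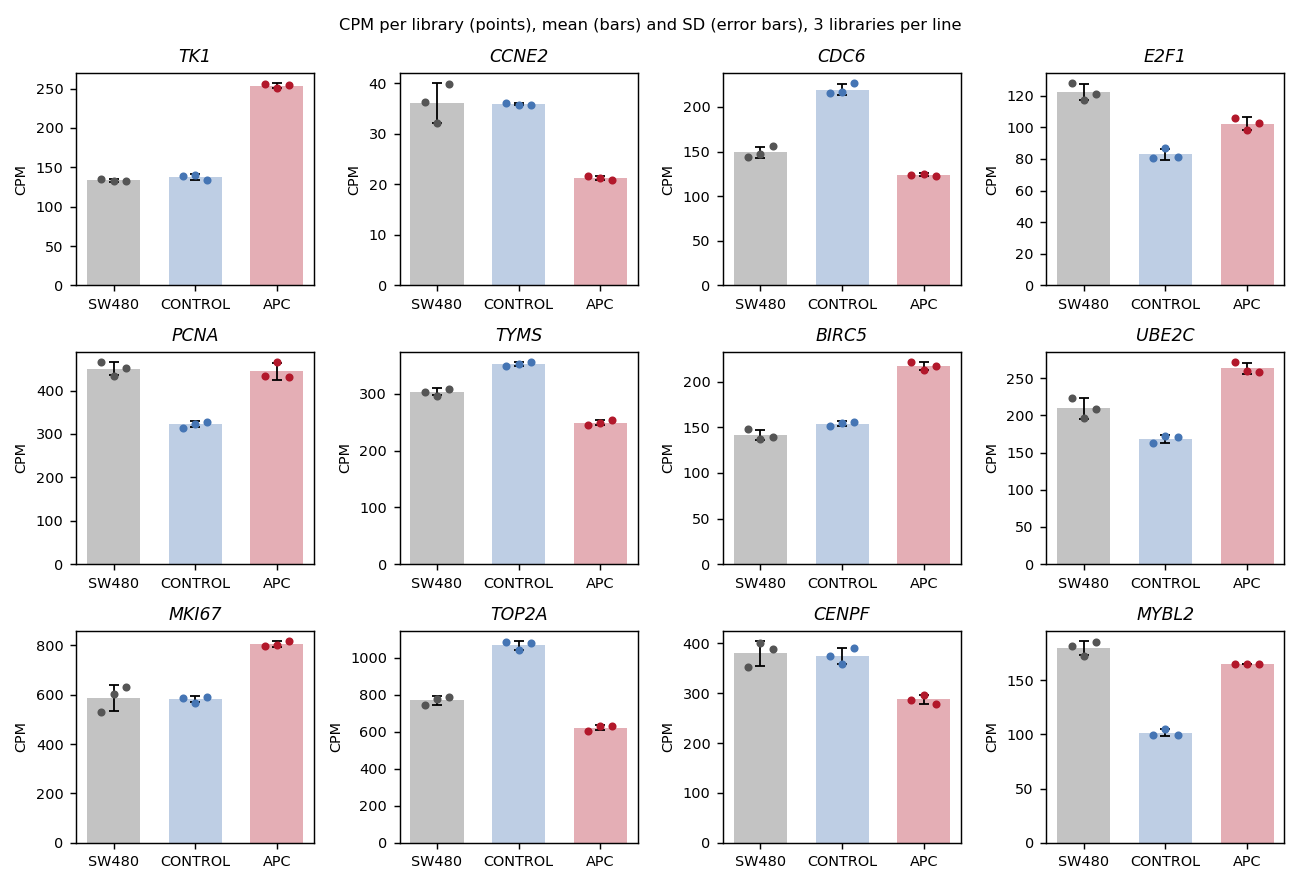
CPM (y axis, from 0) of 12 genes in each library (points), with the mean (bars) and SD (error bars) of 3 libraries per line. TK1, BIRC5 and MKI67 are highest in the APC line, CCNE2 and CENPF lowest, and E2F1, PCNA and MYBL2 are lowest in CONTROL.

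The 24 mitosis genes were more often higher than lower in the APC line, except against SW480 when scaled by library size alone. Other mitosis lists, given below, differed in the genes called higher and lower in both APC comparisons. More were lower for checkpoint and kinetochore (6 and 11), spindle and cytokinesis (1 and 5), and condensin and cohesin genes (4 and 6). More were higher for the anaphase-promoting complex (8 and 2) and for mitotic kinase and passenger genes (1 and 0). Against SW480, 12 of 24 were higher and 6 lower, beside 35.6% and 36.9% of all genes tested, with a median log2 fold change of 0.08 (10 higher and 8 lower with upper-quartile scaling, 10 and 10 with library size alone). Against CONTROL, 13 were higher and 7 lower, beside 34.8% and 35.4% of all genes, with a median of 0.14. Called in the same direction in both were 15 genes, 11 higher and 4 lower (9 and 6 with upper-quartile scaling, 9 and 7 with library size alone), beside 27.8% and 27.9% of all genes. Over all genes tested the medians were −0.01 and −0.01. Of the 9851 genes at 10 CPM or more, 3924 were higher and 3509 lower against SW480, with a median of 0.02. Against CONTROL, 3640 of them were higher and 3604 lower, with a median of −0.0005. The mean log2 CPM of the list lay between 7.65 and 7.68 for APC plates, between 7.55 and 7.56 for CONTROL plates and between 7.57 and 7.60 for SW480 plates, so the APC libraries were above the rest on this scale. Summed CPM was 5831 to 5955 on APC plates, 5741 to 5820 for CONTROL and 5520 to 5729 for SW480. The lowest APC plate (5831) was thus only just above the highest CONTROL plate (5820). Both levels of the list use TMM scaling and were not computed with the other scalings, under which the counts of called genes changed.

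The cyclins of G2 and mitosis did not move together. CCNA2, cyclin A2, which acts from S phase to early mitosis, stood at 145, 141 and 147 CPM on the SW480 plates, 146, 145 and 147 on CONTROL plates and 193, 199 and 186 on APC plates. All APC libraries were above the other 6, which overlapped each other, a rise of 1.33-fold over SW480 (0.41 ± 0.04, edgeR adjusted p = 9.6e-12) and 1.32-fold over CONTROL. CCNF, which encodes an F-box protein that targets proteins for degradation in G2, stood at 50.8, 46.6 and 50.5 CPM on the SW480 plates, 43.9, 48.4 and 43.1 on CONTROL plates and 62.2, 55.4 and 58.9 on APC plates. It was 1.19-fold and 1.31-fold higher in the APC line, with no overlap. CCNB1, which encodes the main mitotic partner of CDK1, was 1.11-fold higher than in SW480 and did not pass against CONTROL (0.03 ± 0.04, 95% interval −0.04 to 0.10). CCNB2, its relative, was 1.17-fold lower than in CONTROL and did not pass against SW480 (−0.05 ± 0.04). CDK1, the mitotic kinase itself, was 1.12-fold higher than in CONTROL and did not pass against SW480 (−0.05 ± 0.04, edgeR adjusted p = 0.231).

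BIRC5 (survivin), a subunit of the chromosomal passenger complex, showed the largest rise among mitosis genes against SW480. It stood at 148, 137 and 139 CPM on the SW480 plates, 151, 155 and 156 on CONTROL plates and 222, 213 and 217 on APC plates. The APC libraries lay above all others, 1.53-fold over SW480 (0.62 ± 0.04, edgeR adjusted p = 3.7e-16) and 1.41-fold over CONTROL. AURKB, the kinase of the same complex, moved slightly the other way against SW480, 1.09-fold lower (−0.13 ± 0.04, edgeR adjusted p = 0.00439), and did not pass against CONTROL (−0.08 ± 0.04). Against CONTROL it passed as lower with upper-quartile scaling (edgeR adjusted p = 0.0482), library size alone (0.0301) and the fit of the 6 compared libraries (0.0442). It also did so with limma (0.0323 and 0.0321). AURKA, the kinase of spindle poles, stood at 241, 236 and 235 CPM on the SW480 plates, 225, 232 and 232 on CONTROL plates and 292, 284 and 284 on APC plates. It was 1.21-fold and 1.25-fold higher in the APC line, with no overlap. TPX2, which activates AURKA on the spindle, stood at 435, 436 and 463 CPM on the SW480 plates, 389, 393 and 383 on CONTROL plates and 454, 488 and 483 on APC plates. The APC and SW480 libraries overlapped (0.10 ± 0.04, edgeR adjusted p = 0.0237). This call was lost without SW480 replicate 1 (adjusted p = 0.0646) or 2 (0.076), or APC replicate 2 (0.0695) or 3 (0.08), and with 4 other alternatives, with adjusted p up to 0.192. The difference of TPX2 from CONTROL, 1.22-fold, was without overlap. PLK1, a kinase needed for entry into and exit from mitosis, stood at 144, 133 and 139 CPM on the SW480 plates, 123, 132 and 125 on CONTROL plates and 155, 149.5 and 152 on APC plates, 1.09-fold and 1.20-fold higher in the APC line and without overlap.

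The spindle checkpoint kinases parted. BUB1B (BUBR1), which holds back the anaphase-promoting complex, stood at 120.3, 125 and 125 CPM on the SW480 plates, 129.8, 125 and 129 on CONTROL plates and 142, 155 and 152 on APC plates. It was higher in all APC libraries, 1.21-fold over SW480 and 1.17-fold over CONTROL. BUB1, its paralog at the kinetochore, did not pass against SW480 (0.01 ± 0.04, 95% interval −0.06 to 0.09) and was 1.17-fold lower than in CONTROL. CDC20, the activator of the anaphase-promoting complex, did not pass in any comparison and was the most abundant mitosis gene per length in SW480, at 157 RPKM. Its 95% interval against SW480 was −0.01 to 0.14 on the log2 scale, and it passed without SW480 replicate 1 (0.09, edgeR adjusted p = 0.0435). UBE2C, the ubiquitin-conjugating enzyme of that complex, stood at 223, 196 and 209 CPM on the SW480 plates, 163, 172 and 171 on CONTROL plates and 272, 259.6 and 259 on APC plates. The lines did not overlap, with the APC line highest and CONTROL lowest, a rise of 1.26-fold over SW480 and 1.56-fold over CONTROL (edgeR adjusted p = 2.5e-15).

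TOP2A and CENPF, genes of chromosome structure and kinetochores, gave the largest decreases among mitosis genes. Their transcripts are long, at 5753 and 10296 bases, and the part of transcript length, described below, was not tested. TOP2A, topoisomerase II alpha, which untangles sister chromatids, stood at 744, 779 and 790.0 CPM on the SW480 plates, 1085, 1039 and 1079 on CONTROL plates and 607, 630.1 and 628 on APC plates. The lines did not overlap, and CONTROL was highest. TOP2A was 1.24-fold lower than in SW480 (−0.31 ± 0.04, edgeR adjusted p = 5.0e-09) and 1.72-fold lower than in CONTROL, which was 1.39-fold above SW480. CENPF, a large kinetochore protein gene, stood at 352, 400.3 and 389 CPM on the SW480 plates, 374, 359 and 391 on CONTROL plates and 287, 297 and 279 on APC plates. SW480 and CONTROL overlapped, and the APC line was 1.32-fold and 1.30-fold below them. CENPE, a kinetochore motor gene, was 1.15-fold lower than in CONTROL and did not pass against SW480 (−0.08 ± 0.04, edgeR adjusted p = 0.0905), though it did without SW480 replicate 1 (−0.12, adjusted p = 0.0128). It also passed there with upper-quartile scaling (0.0355) and library size alone (0.0104). CENPA, the centromeric histone variant gene, did not pass in any comparison (−0.09 ± 0.05 against SW480, 95% interval −0.19 to 0.01). Against SW480 it passed as lower with upper-quartile scaling (edgeR adjusted p = 0.043), library size alone (0.0157) and limma (0.0196 and 0.0195). NUSAP1, a spindle microtubule binder, stood at 220.5, 225 and 219 CPM on the SW480 plates, 226, 208 and 219 on CONTROL plates and 186, 188 and 187 on APC plates, 1.18-fold and 1.17-fold lower in the APC line and without overlap.

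MKI67, which encodes the proliferation antigen Ki-67 that coats mitotic chromosomes, was higher instead. It stood at 529.6, 602 and 633 CPM on the SW480 plates, 585, 568 and 591 on CONTROL plates and 796, 802 and 819 on APC plates. Every APC library was above the other 6, 1.37-fold over SW480 (0.45 ± 0.05, edgeR adjusted p = 2.1e-09) and 1.39-fold over CONTROL. SW480 replicate 1 was the lowest of all libraries for MKI67, and the log2 fold change was 0.38 without it. MKI67, CENPF and CENPE are the 3 transcripts over 8 kb among the 43, and SW480 replicate 1 was lowest of its line for each. Over 557 genes with such transcripts its median deviation from the mean of the other libraries of its line was −0.07 on the log2 scale. For transcripts under 2 kb that median was 0.01, and for the 3 genes it was −0.16. Among the 9851 genes at 10 CPM or more, which these medians cover, the median log2 fold change of the APC line against SW480 was 0.10 under 2 kb and −0.12 over 8 kb. Against CONTROL it was 0.035 under 2 kb and −0.074 over 8 kb. The part of transcript length in these results was not tested. KIF20A, a kinesin of cytokinesis, stood at 148, 147 and 148 CPM on the SW480 plates, 141, 142 and 145 on CONTROL plates and 186, 187 and 188 on APC plates. It was 1.26-fold and 1.31-fold higher, without overlap, and it overlaps exons of CDC23 (log2 fold changes 0.18 and 0.27) and BRD8 (−0.22 and −0.02) on the opposite strand. KIF11, the kinesin that pushes spindle poles apart, stood at 143, 149.6 and 147 CPM on the SW480 plates, 147, 139 and 145 on CONTROL plates and 154, 160.1 and 155 on APC plates, 1.07-fold and 1.09-fold higher. The call of KIF11 against SW480 (edgeR adjusted p = 0.029) was lost without SW480 replicate 1 (0.0968) or APC replicate 2 (0.0768) and in 4 other alternatives, with adjusted p up to 0.254.

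FOXM1 and MYBL2, transcription factors of the mitotic programme, were both lower in the APC line than in SW480. FOXM1 stood at 238, 226 and 232 CPM on the SW480 plates, 246, 244 and 235 on CONTROL plates and 214, 214 and 221 on APC plates. The APC line was lowest without overlap, 1.07-fold below SW480 (−0.10 ± 0.04, edgeR adjusted p = 0.0135) and 1.12-fold below CONTROL. Its call against SW480 was lost without SW480 replicate 1 (adjusted p = 0.0522), APC replicate 1 (0.0519) or APC replicate 2 (0.0715), the highest over all alternatives. MYBL2 (B-MYB), the partner of the MuvB complex, stood at 182, 172 and 185 CPM on the SW480 plates, 99.8, 105 and 99.6 on CONTROL plates and 165, 165 and 165 on APC plates. CONTROL was far below both other lines, 1.77-fold lower than SW480 (−0.82 ± 0.04, edgeR adjusted p = 5.3e-18), the largest difference of the 43 genes between those lines. The APC line was 1.09-fold below SW480 and 1.62-fold above CONTROL, without overlap on either side.

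CONTROL and SW480 both lack the APC construct. Vector, growth with G418 and the single derived line cannot be told apart between them. In CONTROL, 7 S phase genes were higher and 4 lower than in SW480, and 6 mitosis genes were higher and 5 lower (4 and 8 with library size alone). Of all genes tested, 25.3% and 24.7% were called higher and lower. The 4 lower S phase genes were E2F1, PCNA, MCM2 and MCM5, and the 5 lower mitosis genes were MYBL2, UBE2C, CDK1, TPX2 and PLK1. Among the higher were CDC6, TYMS, TOP2A and BUB1. For 15 of the 43 genes this difference was larger in size than that between the APC line and SW480. Small calls here depended on single libraries and, for some genes, on scaling or method. MCM5 was lost without SW480 replicate 1 (adjusted p = 0.054), SW480 replicate 3 (0.0969) or CONTROL replicate 1 (0.104). MCM7 was lost without SW480 replicate 2 (0.0706), CONTROL replicate 2 (0.107) or CONTROL replicate 3 (0.0588), and ORC1 without SW480 replicate 2 (0.075). MCM7 was also lost with library size alone (0.0818) and limma (0.0747 and 0.0741). BIRC5 was lost without SW480 replicate 2 (0.0511) or CONTROL replicate 3 (0.0502), and with library size alone (0.0505). CENPE was lost without SW480 replicate 1 (0.164), CONTROL replicate 1 (0.0787) or CONTROL replicate 3 (0.0577). It was also lost with upper-quartile scaling (0.0517), library size alone (0.11) and limma (0.142 and 0.144). CCNF passed without SW480 replicate 2 (0.0217), CONTROL replicate 2 (0.0159), APC replicate 1 (0.0418) or APC replicate 2 (0.0421), and MKI67 without SW480 replicate 1 (0.0498), both lower in CONTROL. CCNF also passed with upper-quartile scaling (0.0259), library size alone (0.0142) and the fit of the 6 compared libraries (0.0399). All but the limma values are from edgeR, and all have Benjamini-Hochberg adjustment.

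Other genes of the same pathways also went both ways. Of 24 replication fork genes, 5 rose and 7 fell in the APC line against both other lines, among them the clamp loader genes RFC2 and RFC3 (log2 fold changes of 0.48 and 0.48 against SW480, 0.38 and 0.65 against CONTROL) and TIMELESS, of the fork protection complex (−0.53 and −0.83). Of 16 other licensing and origin genes 1 was higher and 1 lower, and of 12 other nucleotide synthesis genes 4 were higher and 1 lower. DUT, which supplies deoxyuridylate to TYMS, was higher by 0.43 and 0.72. Of 16 G1/S regulators 2 were higher and 6 lower, with CDK2, the kinase partner of cyclin E, at −0.50 and −0.78. Of 7 genes of the MuvB core and E2F4 group 3 were lower in both, including LIN54, its DNA-binding subunit, at −0.43 and −0.44. Of 21 other checkpoint and kinetochore genes 6 were higher and 11 lower, with MAD1L1, which holds MAD2 at kinetochores, at −0.81 and −0.90. Among the higher was SKA3, at 0.59 and 0.72. Of 19 other spindle and cytokinesis genes 1 was higher and 5 lower, and of 18 condensin and cohesin genes 4 were higher and 6 lower. Of 14 other mitotic kinase and passenger genes 1 was higher in both. Of 14 genes of the anaphase-promoting complex and its partners 8 were higher and 2 lower, with ANAPC11, its RING subunit, at 0.82 and 0.83 and UBE2S, an E2 enzyme like UBE2C, at 0.58 and 0.44. The share of all genes in these classes was 27.8% higher and 27.9% lower.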

How the data were processed

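Counts as deposited give unnormalised reads for each RefSeq transcript, per the file headers. The authors divided them by transcript length and a constant per library to obtain the deposited RPKM. Build hg19 and the tools Trimmomatic, TopHat and GATK are named in the submitters' processing notes, and the counting tool is not given in the sources used here. Of 39276 transcripts, 1 per gene was kept, and 62 of 65 gene names altered to dates were repaired. For the 17 of 43 genes with more than 1 transcript, the next one held a median of 97.9% of the counts of the first.

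edgeR 4.0.16 (R 4.3.3) was fitted to all 9 libraries with TMM scaling, its default filter on low counts and the quasi-likelihood test, with Benjamini-Hochberg adjustment over 14253 genes. The fit was tested on simulated data: of genes changed 1.2-fold, 41% (APC line against SW480) and 44% (against CONTROL) were recovered, and at 1.5-fold 84% and 81%. The simulation changed 100 of 14253 genes by each fold, drawn at any level that passed the filter. In the data 72.5% and 70.2% of all genes were called, and all 43 genes exceed 10 CPM. The recovered shares therefore do not carry over to the 43 genes. Alternatives used DESeq2 1.42.0, limma 3.58.1 on log2(RPKM + 1) and log2(RPKM + 0.1), other scalings and filters, summed transcripts, a replicate block and each library left out. The 43 genes and all gene lists were chosen with earlier results of these data known. All 43 genes are accounted for, those called in both APC comparisons with every library. Of the other lists, up to 2 genes per direction with the largest change in both comparisons could be named. The text names only some of these, and for several lists in 1 direction only or none. Promoter windows came from RefSeq, and overlapping exons from GENCODE 29.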

Additional observations from a re-analysis of the deposited data

How the results depend on the processing

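Over 19 alternatives, 82 of 92 called differences of the 43 genes were kept in every one, 10 were lost in at least 1, and none changed sign. The largest shift of a called log2 fold change was 0.084. Further differences passed only in an alternative: 10 with library size alone, 6 with upper-quartile scaling, 4 with each limma fit and at most 5 in any other. With library size alone they included CCNB2 (edgeR adjusted p = 0.0329) and CDK1 (0.0272), lower in the APC line than in SW480. AURKA (0.0457) and KIF20A (0.0401), lower in CONTROL than in SW480, were also among them. With library size alone, the mitosis genes called lower were 10 in place of 6 against SW480, 8 in place of 5 between CONTROL and SW480, and 7 in place of 4 in both APC comparisons. Without 1 library at a time, called S phase genes ranged from 15 to 17 (APC line against SW480), 16 to 17 (against CONTROL) and 9 to 11 (CONTROL against SW480), and mitosis genes from 15 to 18, 20 to 20 and 9 to 12. In both APC comparisons, 12 to 14 S phase and 12 to 15 mitosis genes were called.

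Replicate numbers did not pair the libraries: same-numbered deviations correlated between −0.069 and 0.106. With the replicate block the counts against SW480 were 8 higher and 8 lower for S phase and 12 and 6 for mitosis, and no call changed.

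Sign changes were limited to differences near 0 that had not passed. ORC1 against CONTROL was 0.0017 (DESeq2), 0.0013 (its size factors in edgeR) and 0.0036 (summed transcripts). CCNE1 between CONTROL and SW480 was −0.0155 (upper quartile), −0.0324 (library size), −0.0116 and −0.0128 (limma, pseudocounts 1 and 0.1) and −0.0018 (6 compared libraries). In that order, the first 4 of these settings gave −0.0062, −0.0232, −0.0090 and −0.0091 for CCNA2 between CONTROL and SW480, and −0.0073, −0.0313, −0.0178 and −0.0181 for BUB1 between the APC line and SW480. Without 1 library at a time, the range was −0.0467 to 0.0025 for PCNA against SW480, −0.0337 to 0.0366 for ORC1 and −0.0512 to 0.0069 for CENPA against CONTROL. Between CONTROL and SW480 it was −0.1414 to 0.0002 for CDT1, −0.0576 to 0.0716 for CCNE1, −0.0887 to 0.0682 for CCNE2, −0.0059 to 0.0255 for CCNA2, −0.0893 to 0.0392 for MKI67, −0.0757 to 0.0174 for CENPF and −0.0515 to 0.0082 for NUSAP1. The cause was not tested. CCNE1 had 244 to 292 counts per library in SW480 and 247 to 269 in CONTROL. Its counting error of 7.5% is that of its lowest count, 178 in APC replicate 2.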
